A study of Mus musculus with 12 samples.

Results

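Cathepsins are proteases, most of them of the lysosome, and 10 of their genes were followed through every library of the series. Ctsb, Ctsc, Ctsf, Ctsh, Ctsk, Ctsl, Ctss and Ctsz encode cysteine proteases, Ctsd encodes an aspartic protease, and Ctsa encodes a serine carboxypeptidase. They were chosen by symbol, and each was found once among the 34327 genes of the table. RNA-seq had been performed on wild-type C57BL/6J bone marrow–derived macrophages (BMDMs), the macrophages that grow from mouse marrow in medium conditioned by L929 cells. The cells were kept for 24 hours on tissue culture (TC) plates, in low-collagen gels (2 mg/ml) or in high-collagen gels (7 mg/ml), and in each of these settings they were either left untreated or given the type 2 cytokine IL-4 at 20 ng/ml. The gels were made of rat tail type I collagen and detached so that they floated. Each of the 6 conditions has 2 libraries, 12 in all, and no label says whether these came from separate mice or cultures. The p-values rest on the spread between the 2 libraries of a condition, pooled over the conditions of a fit and drawn toward that of genes of like level. That spread may be technical.

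Cathepsins are made as inactive precursors, tagged with mannose 6-phosphate and carried to the lysosome, where the acid pH and other proteases release the active enzyme. There they degrade proteins that macrophages take up, and some are also secreted and can act on matrix, including collagen. Cathepsin S cuts the invariant chain of MHC class II molecules, cathepsin K is best known as the collagenase of osteoclasts, and the activity of the cysteine cathepsins is held down by cystatins. IL-4 acts through STAT6 and drives macrophages into a tissue-reparative state, and the purpose of the series was to ask whether the collagen around the cells alters that response.

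Values are TPM (a transcript’s share of a library, per length), which the authors estimated with kallisto. TPM are corrected for transcript length, so levels of different cathepsins can be set side by side, and every library is scaled to about the same total (999658 to 999723 TPM). The number of reads behind a value is therefore unknown. The correlation between the 2 libraries of a condition was from 0.980 to 0.985. Mitochondrial transcripts made up 3.30% to 5.86% of a library and were lower in gels, and ribosomal protein transcripts made up 8.20% to 12.6% and were higher in gels. All 8 macrophage markers examined were expressed. Their summed level was 27984 to 28590 TPM on untreated plates and 17541 TPM on plates with IL-4. It was 43329 to 53953 TPM in untreated gels and 30713 to 37695 TPM in gels with IL-4, so it was lower with IL-4 in both. A single gene reached 48901 TPM, so the sum largely follows that gene. No marker of dendritic cells, mast cells, fibroblasts or lymphocytes reached a mean of 1 TPM (0 of 26 genes). Markers of neutrophils and their precursors summed to 1.17 to 2.99 TPM on plates and 5.16 to 12.7 TPM in gels, 2 of 9 reaching a mean of 1 TPM, with Ly6g listed at 0 in every library.

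Promoters are shown for the 4 cathepsins whose window holds CACGTG, the core of the element bound by the MiT/TFE transcription factors that control lysosomal genes. The windows run from 250 bases before to 50 bases after the annotated start in RefSeq on GRCm38.p6, read 5′ to 3′ on the strand of the gene, and capitals mark CACGTG. RefSeq promoters were matched for 8 of the 10 genes, in 9 windows. The Ctsa window is chr2:164833523-164833822 on the plus strand, that of Ctsd is chr7:142387778-142388077 on the minus strand, that of Ctsf is chr19:4854915-4855214 on the plus strand and that of Ctsl is chr13:64370471-64370770 on the minus strand.
Ctsa: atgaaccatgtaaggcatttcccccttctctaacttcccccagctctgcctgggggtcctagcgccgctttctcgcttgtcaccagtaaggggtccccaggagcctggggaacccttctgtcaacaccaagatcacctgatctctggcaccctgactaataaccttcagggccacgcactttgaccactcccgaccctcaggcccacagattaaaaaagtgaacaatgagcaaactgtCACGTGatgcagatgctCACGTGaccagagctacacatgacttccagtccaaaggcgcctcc
Ctsd: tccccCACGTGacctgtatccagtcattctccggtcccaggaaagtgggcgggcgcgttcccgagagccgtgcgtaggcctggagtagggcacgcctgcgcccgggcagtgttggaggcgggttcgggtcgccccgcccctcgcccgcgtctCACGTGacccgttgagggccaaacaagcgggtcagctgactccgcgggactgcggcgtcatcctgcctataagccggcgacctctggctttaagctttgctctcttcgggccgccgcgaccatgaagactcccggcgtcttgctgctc
Ctsf: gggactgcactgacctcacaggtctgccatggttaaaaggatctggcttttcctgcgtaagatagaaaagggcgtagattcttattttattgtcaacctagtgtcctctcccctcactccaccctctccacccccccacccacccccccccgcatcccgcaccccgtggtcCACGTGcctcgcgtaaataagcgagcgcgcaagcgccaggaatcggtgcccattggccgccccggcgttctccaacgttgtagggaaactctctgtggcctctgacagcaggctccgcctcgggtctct
Ctsl: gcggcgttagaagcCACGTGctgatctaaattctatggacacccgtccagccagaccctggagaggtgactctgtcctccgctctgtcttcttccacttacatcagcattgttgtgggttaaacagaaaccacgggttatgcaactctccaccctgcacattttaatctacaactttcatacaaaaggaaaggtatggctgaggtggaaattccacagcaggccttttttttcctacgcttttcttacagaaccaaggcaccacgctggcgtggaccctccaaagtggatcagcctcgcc
CACGTG, which reads the same on both strands, was present in 7.15% of all 32851 promoters of this length. In Ctsa it began 12 bases before and 5 bases after the start, in the second of its 2 windows. In Ctsd it began 245 and 98 bases before the start, in Ctsf 79 bases before and in Ctsl 236 bases before. The longer element, CACGTG with GT before it and AC after it, was found in none of the 8 genes (0.326% of all promoters). TTC and GAA with 4 bases between them, a STAT6 type of site searched on both strands, was also found in none of the 8 (6.95% of all promoters). GAGGAA, a purine-rich sequence of the kind bound by the macrophage factor PU.1, was present in Ctsc, Ctsk and Ctss. It lay on a single strand in Ctsc and on both in Ctsk and Ctss (28.3% of all promoters held it on either strand). These are matches of letters, and no binding was measured.

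Cathepsin transcripts were among the most abundant of these macrophages. The 10 genes summed to 19526 ± 108 TPM (SD, n = 2) on untreated plates, or 1.96% of all TPM, and to 25086 ± 218 TPM (SD, n = 2), or 2.51%, in IL-4-treated low-collagen gels. Between these came 19839 ± 508 TPM on plates with IL-4, 21101 ± 378 TPM in untreated high-collagen gels, 22761 ± 224 TPM in untreated low-collagen gels and 24239 ± 422 TPM in high-collagen gels with IL-4 (SD, n = 2 each). Every gel library lay above every plate library in this sum, as the plot of summed levels by library shows. Ctsd was the most abundant member in every library and held a rank of 5 to 8 among all genes. Ctsb ranked from 12 to 18 and Ctss from 19 to 60, while Ctsf and Ctsk, at the other end, never rose above ranks 3632 and 7468. The composition shifted with IL-4. The share of the 8 cysteine proteases in the summed level went from 48.2% to 52.9% on plates, from 45.6% to 54.0% in low-collagen gels and from 47.2% to 52.8% in high-collagen gels, and that of Ctsd went from 45.2% to 40.1%, from 48.3% to 38.9% and from 46.5% to 39.3%.

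**Figure D1:**
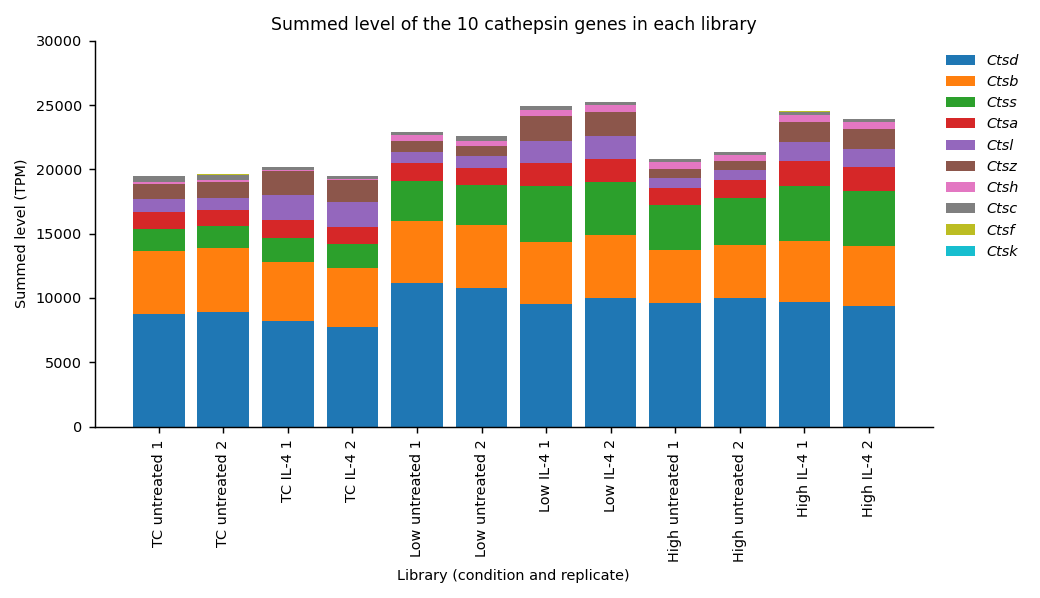
Summed TPM of the 10 cathepsin genes in each of the 12 libraries, stacked by gene, with conditions along the horizontal axis. Ctsd and Ctsb fill most of every bar, the 4 plate libraries reach 19450 to 20198 TPM and the 8 gel libraries 20833 to 25240 TPM.

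The endopeptidases, which cut within a protein chain, did not all follow the culture in the same way. Ctss was at 1750 and 1738 TPM on untreated plates and at 1804 and 1818 TPM on plates with IL-4. In untreated gels it was at 3099 and 3133 TPM with low collagen and at 3491 and 3652 TPM with high collagen, and with IL-4 at 4320 and 4166 TPM in low-collagen and 4294 and 4281 TPM in high-collagen gels. All 8 gel libraries lay above all 4 plate libraries, and the IL-4 libraries lay above the untreated ones within gels. Ctsl, the relative of Ctss with a broad range of substrates, did not follow that order. It was at 955 and 924 TPM on untreated plates, at 909 and 878 TPM in untreated low-collagen gels and at 805 and 811 TPM in untreated high-collagen gels. With IL-4 it was at 1933 and 1950 TPM on plates, at 1656 and 1752 TPM in low-collagen gels and at 1524 and 1412 TPM in high-collagen gels. All 6 IL-4 libraries were above all 6 untreated libraries, and at either treatment the order was plates, low-collagen gels and high-collagen gels, with no overlap. The ratio of Ctss to Ctsl therefore ranged widely, from 0.933 on plates with IL-4 to 4.42 in untreated high-collagen gels.

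Ctsf, a less studied member with a long prosegment, and Ctsk were the rarest. Ctsf was at 5.35 and 5.43 TPM on untreated plates and at 5.95 and 7.02 TPM on plates with IL-4. In gels it lay between 28.6 TPM, in a low-collagen library with IL-4, and 35.5 TPM, in an untreated high-collagen library. Plates and gels did not overlap, and within gels only the low-collagen libraries with IL-4 stood below the other conditions. Ctsk was at 1.71 and 2.30 TPM on untreated plates, at 2.14 and 2.18 TPM in untreated low-collagen gels and at 4.55 and 4.35 TPM in untreated high-collagen gels. With IL-4 it was at 4.62 and 5.73 TPM on plates, at 8.22 and 9.37 TPM in low-collagen gels and at 9.58 and 8.67 TPM in high-collagen gels. Both IL-4 libraries were above both untreated libraries in each culture, and untreated plates and untreated low-collagen gels overlapped. These levels are low, so their fold changes are understated on the log2(TPM + 1) scale. Ctsb, which has both endopeptidase and carboxypeptidase activity, varied least of all members, from 4108 TPM in an untreated high-collagen library to 4983 TPM on an untreated plate, or 1.21-fold.

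The exopeptidases trim chains from their ends. Ctsh, an aminopeptidase, was at 127 and 131 TPM on untreated plates and at 79.0 and 69.5 TPM on plates with IL-4. In untreated gels it was at 470 and 416 TPM with low collagen and at 479 and 433 TPM with high collagen, and with IL-4 at 519 and 485 TPM and at 546 and 555 TPM. Its range over the 12 libraries, 7.98-fold, was the widest of the 10 genes, and the lowest gel library was above the highest plate library. Ctsc, a dipeptidyl peptidase that activates the serine proteases of granules, was higher on untreated plates than in gels. It was at 453 and 460 TPM on untreated plates and at 211 TPM in both libraries of plates with IL-4. In gels it was at 239 and 329 TPM and, with IL-4, at 252 and 227 TPM with low collagen, and at 261 and 231 TPM and, with IL-4, at 256 and 235 TPM with high collagen. Untreated plates stood above every other condition and plates with IL-4 below, and the 4 gel conditions overlapped. The ratio of Ctsh to Ctsc was 0.282 and 0.352 on plates, without and with IL-4, and from 1.61 to 2.24 in the 4 gel conditions.

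Ctsz, a carboxypeptidase, was at 1188 and 1210 TPM on untreated plates, at 810 and 806 TPM in untreated low-collagen gels and at 715 and 713 TPM in untreated high-collagen gels. With IL-4 it was at 1916 and 1744 TPM on plates, at 1948 and 1932 TPM in low-collagen gels and at 1554 and 1495 TPM in high-collagen gels. Every IL-4 library was above every untreated library, and no 2 conditions overlapped. Ctsa, the carboxypeptidase that also protects the lysosomal enzymes Neu1 and Glb1, lay between 1254 and 1420 TPM in the untreated libraries and on plates with IL-4, between 1754 and 1831 TPM in IL-4-treated low-collagen gels and at 1907 and 1906 TPM in high-collagen gels with IL-4. Only gels with IL-4 stood apart. Ctsd, the main aspartic protease of the lysosome, was lowest on plates with IL-4, at 8173 and 7757 TPM, and highest in untreated low-collagen gels, at 11185 and 10807 TPM.

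**Figure D2:**
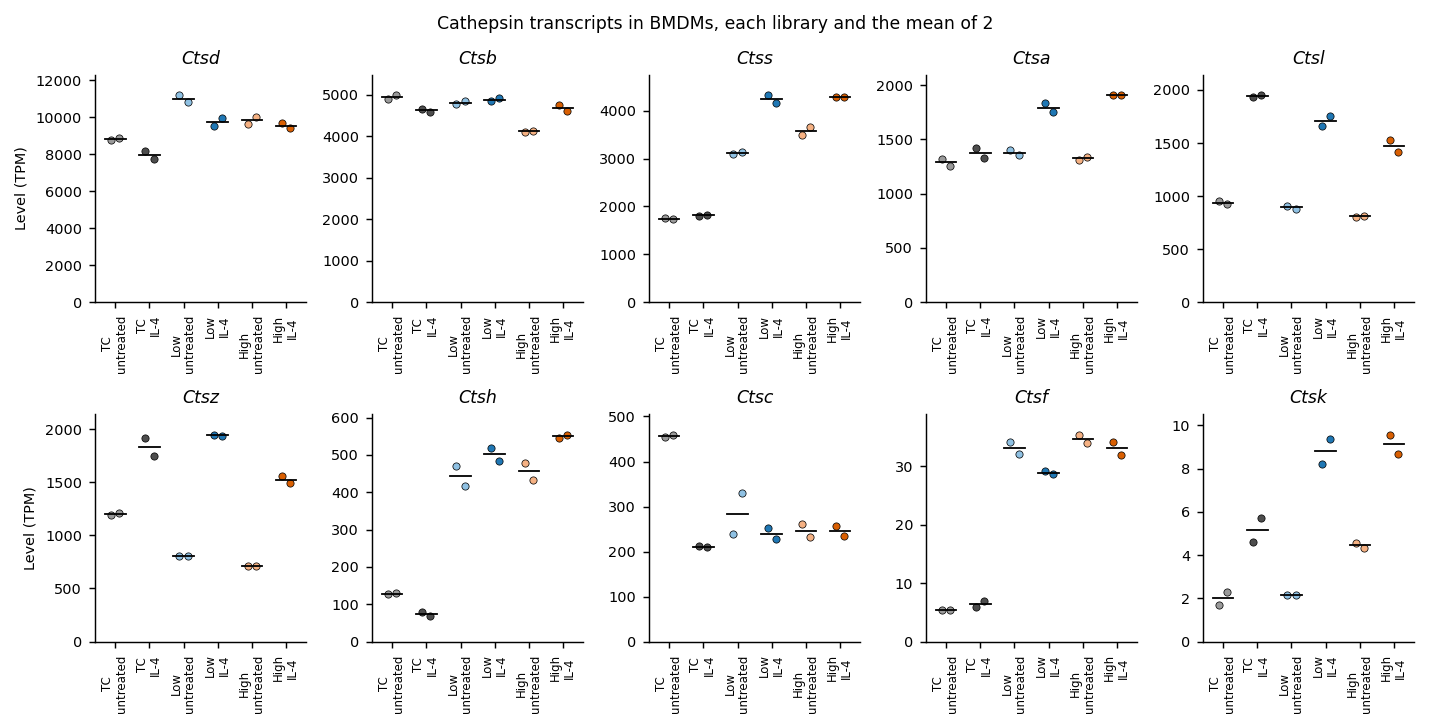
TPM of each cathepsin gene on a linear axis from 0, with a point for each library and a line for the mean of the 2 libraries of a condition. Ctsh, Ctsf and Ctss lie higher in gels than on TC plates, Ctsl and Ctsz lie higher in the IL-4 conditions, and Ctsb and Ctsd vary little.

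Gels were compared with TC plates in untreated macrophages. Gels and plates differ in more than collagen, since the cells were embedded in soft floating gels or lay on stiff plates. The methods of the paper also give different cell numbers for gels and for plates. The parts of these differences cannot be told apart here. The cathepsins moved apart: Ctsf, Ctsh and Ctss were much higher in gels, and Ctsc and Ctsz were lower. Levels were tested with limma on log2(TPM + 1) over 11865 genes, gels being the mean of low- and high-collagen gels, and a gene was called at a Benjamini-Hochberg adjusted p-value under 0.2, the level of error used in the study. All 10 members were called, 6 higher and 4 lower, but 76.4% of all genes were called here (29.7% higher and 46.7% lower), so the count itself says little. The log2 fold change was 2.45 for Ctsf (SE 0.0814, adjusted p = 1.28e-08, limma), a 5.47-fold rise of TPM + 1 that ranked 95 among the 3524 genes called higher. It was 1.79 for Ctsh (SE 0.0712, adjusted p = 3.52e-08, limma) and 0.93 for Ctss (SE 0.0345, adjusted p = 2.36e-08, limma). Ctsc fell by 0.80 (SE 0.111, adjusted p = 0.000135, limma) and Ctsz fell by 0.66 (SE 0.0429, adjusted p = 7.01e-07, limma). Ctsk rose by 0.47 over both gels (SE 0.137, adjusted p = 0.0122, limma), but with low-collagen gels alone the value was 0.08 (adjusted p = 0.70, limma) and not called. In bulk RNA, a smaller number of expressing cells and less RNA per cell cannot be told apart. The summed level of neutrophil markers moved with the culture as well, from 1.27 to 2.16 TPM on untreated plates to 5.82 to 12.7 TPM in untreated gels, and its part in these results was not tested.

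Over all genes the median log2 fold change between untreated gels and plates was −0.15, and rescaling each library by its median ratio moved it to 0.01 and the calls from 3524 higher and 5537 lower to 4584 and 4455. Relative to that median the 5 large changes stayed, at 2.60 for Ctsf, 1.98 for Ctsh, 1.12 for Ctss, −0.61 for Ctsc and −0.47 for Ctsz. Of the small ones, Ctsd was 0.24 higher and 0.42 higher after rescaling. Ctsb and Ctsl were called 0.15 and 0.14 lower, but lay 0.03 and 0.04 higher after rescaling, not called. With low-collagen gels alone they were at −0.04 (adjusted p = 0.407, limma) and −0.07 (adjusted p = 0.243, limma), also not called. Their lowest values under the alternatives were −0.36 and −0.25. Ctsa was called at 0.07 (adjusted p = 0.165, limma), was at 0.25 after rescaling and −0.03 after quantile normalization, and was not called at 0.03 without the second untreated plate library (adjusted p = 0.638, limma), at 0.06 without the second untreated high-collagen library (adjusted p = 0.276, limma) or at 0.06 without the first untreated low-collagen library (adjusted p = 0.261, limma).

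The same contrast was made with IL-4 in both cultures. Ctsh was 7.01-fold higher in gels than on plates, or 2.81 on the log2(TPM + 1) scale (SE 0.0712, adjusted p = 5.1e-09, limma), which ranked 50 among the 3054 genes called higher. Ctsf followed at 2.10 (SE 0.0814, adjusted p = 4.39e-08, limma) and Ctss at 1.24 (SE 0.0345, adjusted p = 8.52e-09, limma). Smaller rises were called for Ctsk (0.69, adjusted p = 0.00134, limma), Ctsa (0.43, adjusted p = 1.21e-05, limma) and Ctsd (0.28, adjusted p = 0.000164, limma). In all, 9 of 10 members were called, 7 higher and 2 lower, against 77.5% of all genes (25.7% higher and 51.8% lower). The median of all genes was −0.24, moved to 0.01 by rescaling, which turned 3054 higher and 6143 lower calls into 4567 and 4428. After rescaling the 6 rises just named were at 3.09, 2.36, 1.52, 0.94, 0.71 and 0.56. Of the 2 members called lower, Ctsl was at −0.30 (adjusted p = 0.000193, limma). After rescaling Ctsl kept its sign but not its call, at −0.01. With single libraries left out it lay at −0.32 to −0.27, and its lowest value under the alternatives was −0.51. Ctsz was at −0.09 (adjusted p = 0.0957, limma), and at 0.20 and called higher after rescaling, while its lowest value under the alternatives was −0.29. Ctsz was not called without the first plate library with IL-4 (−0.02) or the second high-collagen library with IL-4 (−0.07). Ctsb, at 0.05, was not called in the main comparison, was called higher after rescaling (0.33) and lower after quantile normalization (−0.21), and was called without the second high-collagen library with IL-4 (0.06, adjusted p = 0.198, limma). Ctsc was higher by 0.20 (adjusted p = 0.141, limma), a call lost when any of 4 libraries was left out, with adjusted p-values from 0.269 to 0.295 (limma) without the first or the second plate library, the first high-collagen library or the first low-collagen library, all with IL-4.

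IL-4 on TC plates raised some cathepsins and lowered others. On the TPM + 1 scale, Ctsl rose 2.07-fold, Ctsk 2.06-fold and Ctsz 1.52-fold, while Ctsc was 2.16-fold lower and Ctsh 1.73-fold lower with IL-4. For Ctsk this understates the change in mean TPM, from 2.01 to 5.18. Of the 10 members, 8 were called, 4 higher and 4 lower, against 38.8% of all genes (14.7% higher and 24% lower). The log2 fold change was 1.05 for Ctsl (SE 0.0503, adjusted p = 5.11e-07, limma), 1.04 for Ctsk (SE 0.158, adjusted p = 0.00104, limma) and 0.61 for Ctsz (SE 0.0495, adjusted p = 1.69e-05, limma). Ctsc fell by 1.11 (SE 0.128, adjusted p = 0.000178, limma), which ranked 327 among the 2853 genes called lower, and Ctsh fell by 0.79 (SE 0.0822, adjusted p = 9.12e-05, limma). The median of all genes was −0.06, and with rescaling the 5 values went to 1.10, 1.06, 0.67, −1.05 and −0.73. The 3 other calls were small: Ctsf at 0.22 (adjusted p = 0.122, limma), Ctsd at −0.15 (adjusted p = 0.0421, limma) and Ctsb at −0.10 (adjusted p = 0.0989, limma), the last pair not called after rescaling and Ctsd not after quantile normalization (adjusted p = 0.374, limma). Ctsf was not called when 3 of the 4 plate libraries were left out one at a time, at 0.22 without the first untreated library (adjusted p = 0.294, limma), 0.23 without the second (adjusted p = 0.259, limma) and 0.12 without the second IL-4 library (adjusted p = 0.494, limma). Without that last library Ctsb (adjusted p = 0.279, limma) and Ctsd (adjusted p = 0.219, limma) were not called and Ctsa was, at 0.14 (adjusted p = 0.132, limma), and Ctsb was also not called without the second untreated library (adjusted p = 0.350, limma). In the main comparison Ctsa was at 0.09 and Ctss at 0.05, with 95% intervals of −0.01 to 0.20 and −0.04 to 0.14, and neither was called. Both were called higher after rescaling, at 0.15 and 0.11, and lay at −0.02 and −0.08 after quantile normalization.

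In low-collagen gels, IL-4 raised 6 cathepsins. On the TPM + 1 scale Ctsk rose 3.10-fold, which understates the change in its mean TPM, from 2.16 to 8.79. Ctsz was the only other member past 2-fold, and Ctsl, Ctss, Ctsa and Ctsh rose by less. In all, 8 of 10 members were called, 6 higher and 2 lower, against 53.6% of all genes (13.2% higher and 40.4% lower). The log2 fold change was 1.63 for Ctsk (SE 0.142, adjusted p = 0.000152, limma), 1.26 for Ctsz (SE 0.0463, adjusted p = 2.1e-06, limma) and 0.93 for Ctsl (SE 0.0576, adjusted p = 2.54e-05, limma), over 11852 genes in a fit of the 8 gel libraries. It was 0.45 for Ctss (SE 0.0473, adjusted p = 0.000413, limma) and 0.38 for Ctsa (SE 0.0478, adjusted p = 0.000946, limma). The median of all genes was −0.19 and went to −0.0047 with rescaling, and the calls went from 1567 higher and 4784 lower to 2791 and 2497. Relative to that median, these 5 genes were at 1.80, 1.47, 1.14, 0.65 and 0.59. The falls of Ctsd (−0.17, adjusted p = 0.0347, limma) and Ctsf (−0.19, adjusted p = 0.12, limma) changed sign with rescaling, to 0.04 and 0.01. Ctsh rose by 0.18 (adjusted p = 0.116, limma) and by 0.39 after rescaling, a call lost at 0.09 without the second untreated library (adjusted p = 0.456, limma) and at 0.13 without the first IL-4 library (adjusted p = 0.359, limma). Ctsf was not called without the first untreated library (adjusted p = 0.300, limma), the first IL-4 library (adjusted p = 0.211, limma) or the second IL-4 library (adjusted p = 0.323, limma). Ctsc, at −0.23, was called without the first untreated library (−0.46, adjusted p = 0.0260, limma) and was at 0.0021 without the second; these libraries held it at 239 and 329 TPM. After rescaling Ctsb was called as well, at 0.23. After quantile normalization Ctsh (0.10, adjusted p = 0.374, limma) and Ctsd (−0.056, adjusted p = 0.409, limma) were not called.

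In high-collagen gels IL-4 raised 7 cathepsins. On the TPM + 1 scale, Ctsz rose 2.13-fold, Ctsk 1.86-fold and Ctsl 1.81-fold, followed by Ctsa at 1.44-fold. For Ctsk this understates the change in mean TPM, from 4.45 to 9.13. Of the 10 members, 7 were called and all of these were higher, against 34.3% of all genes (11.5% higher and 22.8% lower). The log2 fold change was 1.09 for Ctsz (SE 0.0463, adjusted p = 6.91e-06, limma), 0.89 for Ctsk (SE 0.142, adjusted p = 0.00458, limma), 0.86 for Ctsl (SE 0.0576, adjusted p = 5.69e-05, limma) and 0.52 for Ctsa (SE 0.0478, adjusted p = 0.00029, limma). Ctsh, Ctss and Ctsb were called at 0.27, 0.26 and 0.19, and Ctsh was not called without the second untreated library (0.20, adjusted p = 0.235, limma). Rescaling moved the median of all genes from −0.10 to −0.0053 and the calls from 1366 higher and 2698 lower to 1989 and 1766, and it left the 7 members called, at 1.20, 0.98, 0.96, 0.63, 0.38, 0.37 and 0.29 in the order above. Quantile normalization ended the calls of Ctss (0.098, adjusted p = 0.260, limma) and Ctsb (0.034, adjusted p = 0.709, limma). Ctsc, Ctsd and Ctsf were at −0.00014, −0.04 and −0.07, none called, and at 0.10, 0.06 and 0.03 after rescaling.

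Ctsk rose with IL-4 in every culture together with several genes of osteoclasts, the cells in which it is best known. The summed level of the 10 osteoclast markers examined was 47.1 to 49.0 TPM on untreated plates and 442 TPM on plates with IL-4, and 83.5 to 112 TPM in untreated gels and 404 to 540 TPM in gels with IL-4. On plates 5 of the 10 were tested, of which 3 rose and 1 fell, against 38.8% of all genes called. In each gel 4 were tested, and again 3 rose and 1 fell, against 53.6% of all genes with low and 34.3% with high collagen. After rescaling the fall was no longer called on plates or in high-collagen gels. Atp6v0d2, a subunit of the proton pump, made up most of the sum with IL-4, at 5.77 and 6.92 TPM on untreated plates and 317 and 321 TPM with IL-4. Of the defining markers, Calcr was listed at 0 in every library and Oscar at 0 to 0.22 TPM, and the level of Nfatc1 fell with IL-4, from 28.5 and 26.7 to 25.3 and 22.8 TPM on plates (−0.19, adjusted p = 0.138, limma), which was not called after rescaling. The part of these genes in the change of Ctsk was not tested.

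The question whether IL-4 acted on the cathepsins differently in gels and on plates was tested directly, as the IL-4 response in gels, averaged over both collagens, minus that on plates. Ctsh and Ctsc gave the largest differences. IL-4 lowered both on plates, whereas in the fit of the 8 gel libraries Ctsh was higher with IL-4 and Ctsc was not called in either gel. With all 12 libraries in the fit, Ctsc was called lower with IL-4 in low-collagen gels (−0.23, adjusted p = 0.192, limma). The difference was 1.02 for Ctsh (SE 0.101, adjusted p = 0.000286, limma) and 1.00 for Ctsc (SE 0.157, adjusted p = 0.00347, limma), or 2.02-fold and 1.99-fold. Ctsz followed at 0.57 (SE 0.0606, adjusted p = 0.000425, limma), with a rise in every culture that was larger in gels, then Ctsa at 0.36 (SE 0.0594, adjusted p = 0.00466, limma) and Ctss at 0.30 (SE 0.0488, adjusted p = 0.00397, limma), neither of which was called on plates. Ctsb differed by 0.20 (SE 0.0455, adjusted p = 0.0221, limma). In the other direction lay Ctsf at −0.35 (SE 0.115, adjusted p = 0.0835, limma) and Ctsl at −0.15 (SE 0.0616, adjusted p = 0.153, limma). In all, 8 of 10 members were called, 6 higher and 2 lower, against 27.1% of all genes (10.8% higher and 16.4% lower).

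Rescaling moved the median of all genes from −0.08 to 0.01 in this test and the calls from 1278 higher and 1940 lower to 1816 and 1205. The 6 positive differences stayed called, at 1.12, 1.09, 0.67, 0.46, 0.40 and 0.30 in the order above, and those of Ctsf (−0.25) and Ctsl (−0.05) were no longer called. Ctsf was also not called without the first untreated plate library (adjusted p = 0.203, limma) or the second plate library with IL-4 (adjusted p = 0.264, limma). For Ctsl the call was lost without any of 8 of the 12 libraries, all but the first high-collagen library with IL-4, the second low-collagen library with IL-4 and both untreated low-collagen libraries, with adjusted p-values up to 0.375 (limma). Taken in one gel at a time, the difference was called for Ctsh, Ctsc, Ctsz, Ctsa, Ctss and Ctsb in both. For Ctsd (0.04, 95% interval −0.08 to 0.17) and Ctsk (0.22, −0.21 to 0.66) no difference was called. Ctsk was called with low-collagen gels alone (0.59, adjusted p = 0.128, limma) and after quantile normalization (0.49), and was at −0.15 with high-collagen gels alone.

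**Figure D3:**
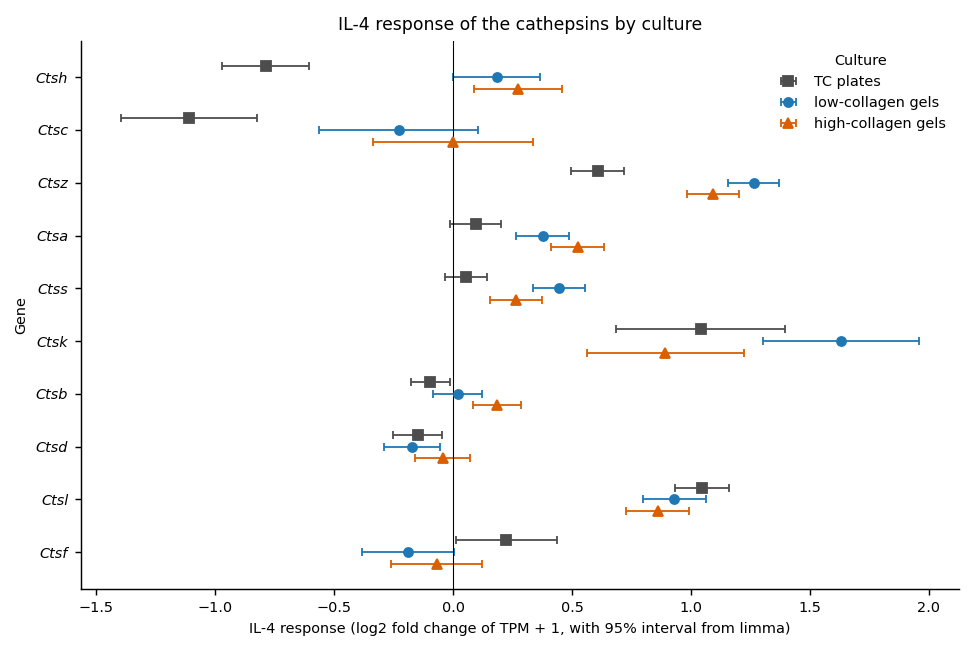
IL-4 response of each cathepsin gene as the log2 fold change of TPM + 1 on TC plates (squares), in low-collagen gels (circles) and in high-collagen gels (triangles), with 95% intervals from limma. For Ctsh and Ctsc the plate values of −0.79 and −1.11 lie apart from the gel values of −0.23 to 0.27, whereas the 3 values of Ctsl lie between 0.86 and 1.05; the sign of Ctsd and Ctsf in gels, of Ctsc in high-collagen gels and of Ctsa and Ctss on plates depends on the scaling.

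Between the collagen densities, no called difference of a cathepsin reached 2-fold on the log2(TPM + 1) scale. With IL-4, Ctsz was lower in high-collagen than in low-collagen gels, falling by 0.35 (SE 0.0463, adjusted p = 0.0128, limma), or 1.27-fold, and Ctsl fell by 0.22 (SE 0.0576, adjusted p = 0.0779, limma), or 1.16-fold. These were the 2 members called, both lower, against 21.1% of all genes (14.1% higher and 6.99% lower). After rescaling they were at −0.42 and −0.29 and still called, while the calls over all genes went from 1672 higher and 828 lower to 1218 and 1350. Ctsl was not called at −0.16 without the second high-collagen library (adjusted p = 0.336, limma) or at −0.18 without the second low-collagen library (adjusted p = 0.319, limma), both with IL-4, and each of these takes the count from 2 to 1. The 8 other members were between −0.06 and 0.19.

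Without IL-4, 5 members were called between high- and low-collagen gels, 2 higher and 3 lower, against 8.02% of all genes (3.23% higher and 4.79% lower). Ctsk was higher in high-collagen gels by 0.79 (SE 0.142, adjusted p = 0.0674, limma), or 1.73-fold on the log2(TPM + 1) scale and 1.01 (log2) with a pseudocount of 0.1, and Ctss by 0.20 (SE 0.0473, adjusted p = 0.113, limma). Ctsb fell by 0.22 (SE 0.044, adjusted p = 0.0709, limma), Ctsz by 0.18 (SE 0.0463, adjusted p = 0.132, limma) and Ctsd by 0.16 (SE 0.05, adjusted p = 0.178, limma). These calls were fragile. None of the 5 was called when either untreated high-collagen library was left out, with adjusted p-values from 0.216 to 0.486 (limma) without the first and from 0.224 to 0.376 (limma) without the second. Without the first untreated low-collagen library 3 members were called, Ctsb, Ctsk and Ctsc, the last at −0.42 (adjusted p = 0.177, limma), and without the second 2, Ctsb and Ctsk. After rescaling, Ctsk alone was called (0.80, adjusted p = 0.0788, limma), while over all genes 383 higher and 568 lower calls became 455 and 427. After quantile normalization Ctsb (−0.067, adjusted p = 0.553, limma) and Ctsd (−0.13, adjusted p = 0.209, limma) were not called and Ctsl was (−0.17, adjusted p = 0.132, limma). With the replicate number as a block in the fit 3 were called, without Ctsd and Ctsz.

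Whether collagen density altered the IL-4 response was tested as the interaction, the response in high-collagen minus that in low-collagen gels. It was called for 0 of 10 members by limma, and 4 had an unadjusted p-value under 0.05, against 0.363% of all genes called (43 genes) and 1171 genes with an unadjusted p-value under 0.05. The value furthest from 0 was that of Ctsk, −0.74 (SE 0.20, 95% interval −1.20 to −0.27, adjusted p = 0.36, limma), and Ctss (−0.18), Ctsz (−0.17) and Ctsb (0.17) were the 3 others. The intervals reached −0.32 and −0.34 for Ctsz and Ctss and 0.31 for Ctsb. Among the members with a larger unadjusted p-value, they reached 0.70 for Ctsc, 0.39 for Ctsf and 0.35 for Ctsh. These data cannot exclude differences of those sizes between gels.

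**Figure D4:**
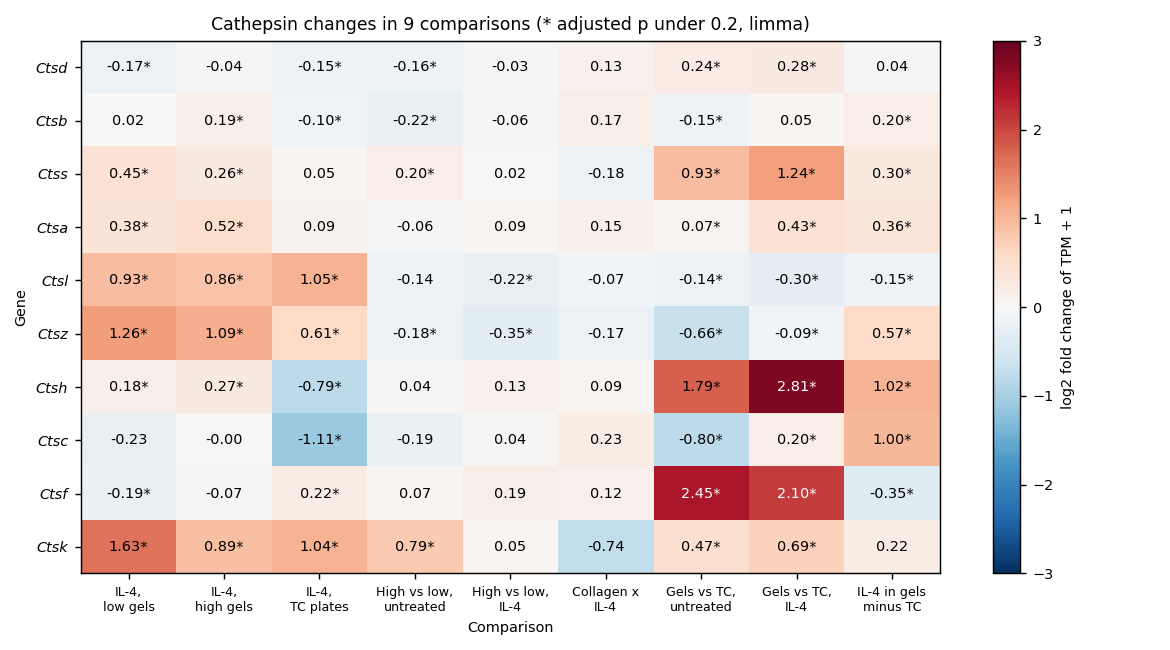
Log2 fold changes of TPM + 1 for the 10 cathepsin genes in 9 comparisons, with red for higher and blue for lower and an asterisk at an adjusted p-value under 0.2 by limma. The values past 1 are those of Ctsf, Ctsh and Ctss in gels against plates, Ctsh in the difference of the IL-4 responses, and Ctsk, Ctsl and Ctsz with IL-4 in at least one culture, and the value below −1 is that of Ctsc with IL-4 on plates. With rescaling, values within 0.2 of 0 can change sign.

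The other cathepsin genes added little to these levels. Of 14 examined, 11 did not reach a mean of 1 TPM, among them the placental cathepsins and Ctsg of neutrophils, which was listed at 0 to 1.03 TPM. Ctso, a widely expressed cysteine protease, lay between 27.6 and 50.2 TPM and rose with IL-4 on plates, from 28.6 and 27.6 to 47.5 and 50.2 TPM (0.78, adjusted p = 8.6e-05, limma). Napsa, an aspartic protease related to Ctsd, was at 14.5 to 19.4 TPM on plates and 38.01 to 62.2 TPM in gels, a log2 fold change of 1.26 in untreated cells (adjusted p = 1.01e-06, limma) and 1.88 with IL-4 (adjusted p = 1.05e-07, limma). Among 6 other lysosomal proteases, 4 were called higher and 2 lower in gels than on plates, in untreated cells and with IL-4, against 76.4% and 77.5% of all genes called, and after rescaling 4 were called higher and 1 lower in both. Prcp, a carboxypeptidase, was at 52.7 to 56.3 TPM on plates and 126 to 143 TPM in gels. Dpp7, a dipeptidyl peptidase, was at 138 and 142 TPM on untreated plates and at 51.7 to 70.7 TPM in untreated gels.

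The inhibitors of the cysteine cathepsins changed as well, and not in step with one another. Of the 12 genes examined, 6 passed the filter. Cst3, the gene of the secreted cystatin C, was at 968 and 1048 TPM on untreated plates and at 1789 to 2114 TPM in untreated gels, a rise of 0.99 (SE 0.0694, adjusted p = 1.12e-06, limma). Cstb, the gene of the cytosolic cystatin B, was at 1199 and 1264 TPM on untreated plates and at 514 to 679 TPM in untreated gels, and fell by 1.04 (SE 0.0489, adjusted p = 9.35e-08, limma). The ratio of Cst3 to Cstb was thus 0.818 on untreated plates and 2.89 and 3.90 in untreated low- and high-collagen gels. The summed level of the 8 cysteine proteases over that of Cst3 and Cstb varied little, from 3.64 to 4.21 over the 6 condition means. In low- and in high-collagen gels, IL-4 raised 4 of the 6 inhibitors and lowered 2, and on plates it raised 3 and lowered 2, against 53.6%, 34.3% and 38.8% of all genes called. Cst7, the gene of cystatin F, which is carried to lysosomes and acts on cathepsin C among others, went from 18.4 and 21.4 to 72.7 and 76.0 TPM on plates and from 7.59 to 10.7 TPM to 53.4 to 59.0 TPM in gels. Ctla2b, which resembles the propeptide of cysteine proteases, went from 213 and 200 to 81.6 and 78.0 TPM on plates and from 248 to 287 TPM to 52.9 to 75.3 TPM in gels. The log2 fold changes were 1.85 (adjusted p = 1.57e-05, limma) and −1.36 (adjusted p = 3.24e-06, limma) on plates and 2.57 (adjusted p = 2.67e-05, limma) and −2.30 (adjusted p = 3.1e-06, limma) in low-collagen gels.

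Of the 12 genes for activation, sorting and partners of cathepsins, 5 were called higher and 7 lower in untreated gels than on untreated plates, against 76.4% of all genes called (29.7% higher and 46.7% lower). Igf2r, the large mannose 6-phosphate receptor, was at 79.8 and 79.9 TPM on untreated plates and at 18.3 to 20.5 TPM in untreated gels, a fall of 2.01 (SE 0.0622, adjusted p = 9.21e-09, limma). The small receptor, M6pr, fell by 0.55 (adjusted p = 3.3e-06, limma) and Gnptab, a subunit of the enzyme that makes the tag, by 1.11 (adjusted p = 3.88e-05, limma). Psap, the precursor of saposins that also binds procathepsin D, rose, from 3696 and 3723 TPM to 10335 to 11152 TPM (1.55, adjusted p = 5.51e-09, limma). Lgmn, an asparaginyl endopeptidase that processes several cathepsins, was at 816 and 839 TPM on untreated plates and at 1772 to 2014 TPM in untreated gels (1.18, adjusted p = 9.21e-09, limma), and IL-4 raised it on plates, to 1284 and 1229 TPM, with a difference of the IL-4 response of −0.66 between gels and plates (adjusted p = 8.17e-05, limma). Cd74, the gene of the invariant chain, went from 12.99 and 14.9 TPM on untreated plates to 80.4 and 77.6 TPM with IL-4, and in gels from 44.9 to 60.3 TPM to 607 to 888 TPM. The IL-4 response of Cd74 was larger in gels by 1.35 (SE 0.0985, adjusted p = 5.5e-05, limma).

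Of the MiT/TFE factors, Tfec was the one that moved most with IL-4. It was at 34.2 and 34.1 TPM on untreated plates and 113 and 121 TPM with IL-4, a rise of 1.75 (SE 0.0887, adjusted p = 7.5e-07, limma), and in gels it went from 24.8 to 35.4 TPM to 49.95 to 72.3 TPM. The IL-4 responses of all 4 factors were called lower in gels than on plates, against 16.4% of all genes, and 2 of them after rescaling, with −0.80 for Tfec (adjusted p = 0.00161, limma) and −0.62 for Mitf (adjusted p = 0.0157, limma) in the main comparison.

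**Figure D5:**
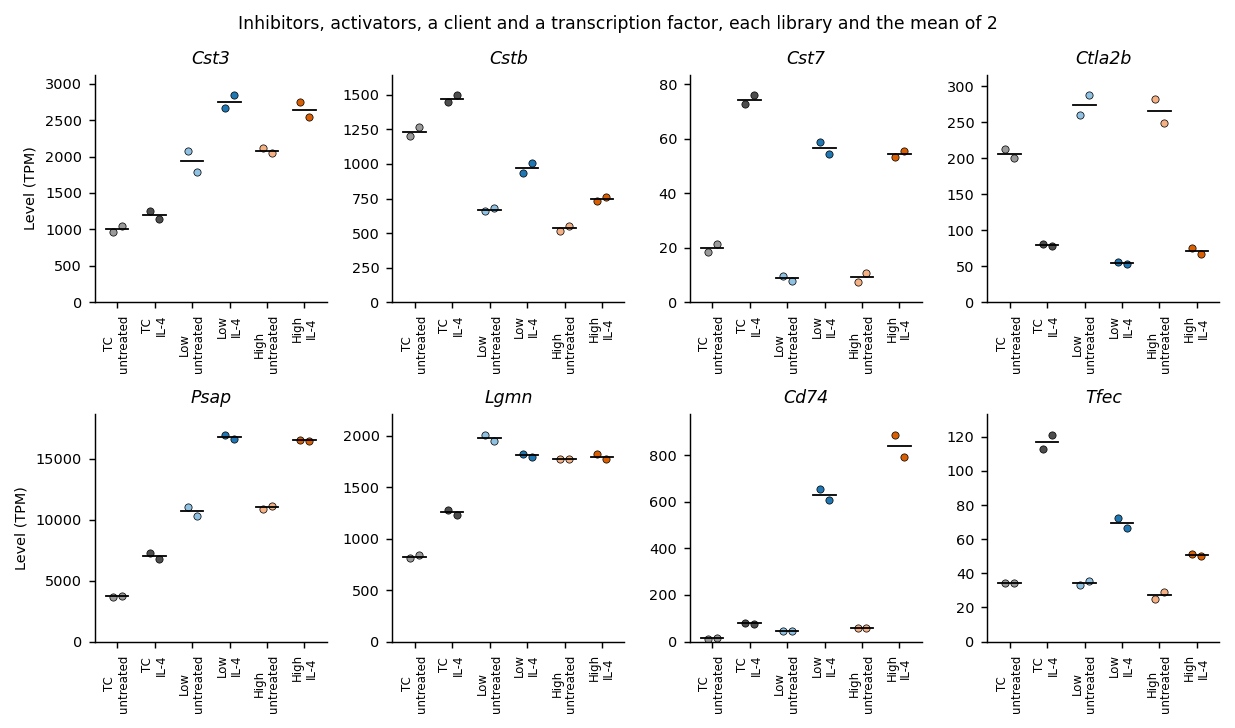
TPM of cystatin genes (Cst3, Cstb, Cst7), the propeptide-like inhibitor Ctla2b, Psap, Lgmn, the cathepsin S substrate gene Cd74 and the factor Tfec, with a point for each library and a line for the mean of 2. Cst3 and Psap lie higher and Cstb lower in gels than on TC plates, and IL-4 goes with higher Cst7, Cd74 and Tfec and lower Ctla2b in every culture.

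Across the 12 libraries, the members fell into patterns that can be described by the genes most like them, given as Pearson's r of log2(TPM + 1) over the 9670 genes with a mean of at least 5 TPM. The libraries share conditions, so these are descriptions. Ctss was closest to Gm2a (0.995), the gene of a lysosomal activator protein, followed by Itm2c (0.9905) and H2-Ab1 (0.9896), a chain of MHC class II. Ctsh was closest to Ak4 (0.993) and H2-K1 (0.991), Ctsf to Hist1h1c and Clec4a1 (0.994 both) and Ctsd to Arhgef3 (0.968). Ctsz was closest to Anpep (0.992), an aminopeptidase of the cell surface, followed by Anxa4 and Lgals3 (0.988 both). Ctsl was closest to Tmem26 (0.994) and Ctsa to Il4i1 (0.984), a gene named for its induction by IL-4. Ctsk was closest to the fibronectin gene Fn1 (0.966). Ctsb, which varied least, was closest to the progranulin gene Grn (0.892), and Ctsc to Gpr84 (0.910). Among the members themselves, the pairs most alike were Ctsf and Ctsh (0.953), Ctsh and Ctss (0.948), Ctsf and Ctss (0.941) and Ctsl and Ctsz (0.938).

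On GRCm38, the 10 genes are protein coding and Ctsk (chr3:95499256-95509362) and Ctss (chr3:95526786-95556403) lie 17423 bases apart on the plus strand of chromosome 3, with no annotated gene between them. Both genes were higher in the IL-4 libraries of each culture, although for Ctss the difference on plates was not called. They differed in another respect. Ctss was higher in all gel libraries than on any plate, whereas Ctsk overlapped between untreated plates and untreated low-collagen gels. Ctsh is at chr9:90054152-90076089 and Ctsf at chr19:4855130-4860918, both on the plus strand, and Ctsc at chr7:88278085-88310888 on the plus strand, on the chromosome that also holds Ctsd (chr7:142375911-142388038, minus strand). Ctsz is at chr2:174427493-174439039 on the minus strand and Ctsa at chr2:164832873-164841032 on the plus strand, Ctsl at chr13:64359337-64370890 on the minus strand and Ctsb at chr14:63122462-63145923 on the plus strand. Reads of some members can match other genes. Words of 31 bases were counted in GENCODE transcripts. These are not the Ensembl transcriptome on which kallisto was run, where the sharing may differ. Of the words in its transcripts, Ctsd shared 33.2%, all with the overlapping gene model Gm49369, which is not a row of the table. The shares were 28.2% for Ctsl, 14.6% for Ctsa, 13% for Ctsb and at most 1.71% for the 6 others, and 0% for Ctsf, Ctsk, Ctss and Ctsz. Ctsa overlaps Neurl2 and Pltp, Ctsb overlaps Fdft1, Ctsc overlaps Gm26522, Ctsl overlaps Gm47123 and Ctsz overlaps Nelfcd on opposite strands. On the same strand, Ctsl overlaps Gm49230 and Ctss overlaps Hmgb1-ps5, both processed pseudogenes. The options stated for kallisto name no strand, so reads from the overlaps on opposite strands may not be told apart.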

How the data were processed

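Libraries were made by the authors with a stranded mRNA kit and sequenced in paired ends, and transcripts were quantified with kallisto 0.46.1 on the Ensembl GRCm38 transcriptome. One table of TPM per gene and library was deposited by the authors, which carries no depth, so no counting interval can be given. How transcripts were summed to genes is not given in the sources used here. From the deposited TPM, 129 repeated lines were collapsed, leaving 34327 genes. Levels were compared as log2(TPM + 1) in R 4.3.3 by limma 3.58.1. Each condition had a mean of its own, the prior variance followed the mean, genes under a mean TPM of 1 were left out, and Benjamini-Hochberg adjusted p-values over all genes tested were called under 0.2. Comparisons within gels were fitted on the 8 gel libraries and those with TC plates on all 12. Changes of low genes are understated on this scale. The smallest p of an exact permutation test of 2 libraries against 2 is 0.333. The fit was tested on simulated data first.

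The members and the gene lists were chosen with earlier results of these data known. Every member is named. Genes of the other lists were named where their mean TPM was at least 5 and they were called at least once, and the 3 genes most correlated with each member were considered. Marker genes are an exception, named at any level to check cell types. Each library was left out in turn, and other alternatives were median-ratio rescaling, quantile normalization, a replicate block, one gel at a time, other libraries in the fit, no trend, no filter or one at a mean TPM of 5, a pseudocount of 0.1, a threshold of 0.05, and a 2-fold change as well. Locations and the transcripts for shared words came from GENCODE on GRCm38 and promoters from RefSeq (GRCm38.p6). Other steps ran in Python 3.11.15 with numpy 2.4.6 and pandas 2.3.3, and figures in matplotlib 3.10.9.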

Additional observations from a re-analysis of the deposited data

Results flagged for a closer look

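The IL-4 response in gels minus that on TC plates was past the threshold for 8 cathepsins by a test of the difference itself (limma, log2 scale): Ctsh at 1.02, Ctsc at 1.00, Ctsz at 0.57, Ctsa at 0.36, Ctss at 0.30, Ctsb at 0.20, Ctsl at −0.15 and Ctsf at −0.35. The last pair was not past it after median-ratio rescaling. With 2 libraries a condition, no group was large enough to test for a sample that stands apart.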

How the results depend on the processing

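Of 1530 values of single cathepsins under the alternatives, 1309 kept their direction and their side of the threshold, 170 were no longer called, 15 became called and 36 changed sign; the cause was not tested. The number of members called moved by more than 1.5 times as follows. For IL-4 in low-collagen gels (8) it was 5 with quantile normalization, and for IL-4 in high-collagen gels (7) it was 4 without a filter. For high against low collagen with IL-4 (2) it was 1 without a filter, without the trend or at 0.05. Without IL-4 (5) it was 3 with the replicate block and 1 without a filter, without the trend or with rescaling. It was 0 there at 0.05 and 0 with a fit of just the compared libraries. Requiring a 2-fold change as well left 2, 1 and 3 members for IL-4 in low-collagen gels, in high-collagen gels and on plates, 0 for both collagen comparisons, 2 and 3 for gels against plates without and with IL-4, and 1 for the difference of the IL-4 responses. The interaction stayed at 0 under every alternative. With single libraries left out the counts were 6 to 8, 6 to 7 and 6 to 8 for IL-4 in low-collagen gels, in high-collagen gels and on plates, 1 to 2 and 0 to 3 for collagen with and without IL-4, 0 to 0 for the interaction, 9 to 10 and 7 to 9 for gels against plates without and with IL-4, and 6 to 8 for the difference.

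Sign changes with rescaling were Ctsd (0.035) and Ctsf (0.013) for IL-4 in low-collagen gels, Ctsc (0.10), Ctsd (0.061) and Ctsf (0.032) in high-collagen gels, Ctsc (−0.038), Ctsk (−0.020) and Ctss (−0.061) for collagen with IL-4, Ctsh (−0.015) for the interaction, Ctsb (0.034) and Ctsl (0.039) for untreated gels against plates, and Ctsz (0.20) with IL-4. With quantile normalization they were Ctsf (0.0031) in low-collagen gels, Ctsd (0.071) and Ctsf (0.024) in high-collagen gels, Ctsa (−0.023) and Ctss (−0.077) for IL-4 on plates, Ctsk (−0.044) for collagen with IL-4, Ctsl (0.032) for the interaction, Ctsa (−0.033) for untreated gels against plates and Ctsb (−0.21) with IL-4. With one gel only, Ctsz was at 0.086 in low-collagen gels against plates with IL-4, and in the difference of the IL-4 responses Ctsd was at −0.024 with low-collagen and Ctsk at −0.15 with high-collagen gels. With single libraries left out, signs changed for Ctsc in 5 comparisons, with ranges of −0.46 to 0.0021 for IL-4 in low-collagen gels, −0.086 to 0.086 in high-collagen gels, −0.038 to 0.11 and −0.42 to 0.040 for collagen with and without IL-4, and −0.0022 to 0.46 for the interaction, and for Ctsk (−0.035 to 0.13) and Ctss (−0.011 to 0.041) for collagen with IL-4 and Ctsh (−0.045 to 0.13) without.

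The replicate numbers 1 and 2 are shared between conditions, but no label says that they pair the samples, and the deviations of same-numbered libraries correlated by −0.12 to 0.11 over 15 pairs of conditions, with 1 of them over 0.1. With the replicate block, 3 members in place of 5 were called for collagen without IL-4 and 9 in place of 8 for IL-4 on plates, and over all genes the largest moves were from 951 to 586 calls for collagen without IL-4 and from 43 to 18 for the interaction.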
